A study of Mus musculus with 21 samples.

Results

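Male germ cells without Tex15 (KO) were set against heterozygous cells (HT) at postnatal day 2.5 (D2.5), an age that the design text of the series gives as day 2. The comparison used 6 of the 21 RNA libraries of the series, 3 KO and 3 HT, chosen by the genotype and age in their labels. KO libraries came from Tex15-/- cells and HT libraries from Tex15+/- cells. Wild-type (WT) cells of the same age, also 3 libraries, entered the fit and are given for reference. All 9 were male cells of mixed strain background from matings of Tex15 heterozygotes, sorted from pup testes by an Oct4-GFP reporter and described as biological replicates. The same genotypes at embryonic day 18.5 (E18.5), 3 KO and 3 HT libraries, are set beside them where named. The question was which genes and repeated elements change when Tex15 is missing shortly after birth.

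TEX15 is a nuclear protein of male germ cells with a known role in meiotic recombination and in the silencing of transposable elements. In the fetal testis, piRNAs guide a nuclear PIWI protein to young transposons, and DNA methylation is then laid down on their promoters. L1 elements are copied through an RNA intermediate and carry their own promoter. IAP elements belong to the ERVK family of retroviral repeats and start transcription in their long terminal repeats (LTRs).

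Levels are given as CPM, counts scaled to a gene total of 1000000 per library with TMM factors. Log2 fold changes are KO over HT with their standard error (SE), from edgeR's quasi-likelihood test with Benjamini-Hochberg adjustment over all genes, repeat names or repeat families tested. A gene, name or family was called at an adjusted p under 0.05. The 6 libraries held 6063632 to 6900680 gene counts in KO and 6395192 to 7391401 in HT. Repeat names took a further 58.6% to 68.5% of all counts in KO and 63.0% to 69.4% in HT. The biological coefficient of variation was 55.4% over genes. On the first principal component of the genes, which holds 18.7% of the variance, KO replicate 3 stood apart at -113, against -19.1 and -15.0 for the other KO libraries and 14.9 to 35.3 for HT and WT.

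The label of germ cells was checked on marker genes. Dazl, an RNA-binding protein of germ cells, averaged 3127 ± 833 CPM in KO and 3149 ± 269.5 CPM in HT (SD, n = 3 each). The RNA helicase Ddx4 averaged 511 ± 46.4 CPM in KO and 594 ± 60.2 CPM in HT. Pou5f1, the gene behind the reporter, was low in both, at 1.39 to 8.49 CPM in KO and 0 to 2.57 CPM in HT. Ptprc, carried by white blood cells, was at 0.155 to 1.12 CPM in KO and 0 to 0.308 CPM in HT, and the globin gene Hbb-bs was at 0 in every library. Not every blood marker was that low: Mrc1 of macrophages averaged 38.7 ± 6.92 CPM in KO and 46.3 ± 14.9 CPM in HT, and the macrophage and blood list summed to 65.0 to 156 CPM in KO and 97.5 to 116 CPM in HT.

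Tex15 itself checked the genotypes. It was measured at 20.3, 20.0 and 14.0 CPM in KO, against 1498, 1835 and 1573 CPM in HT and 3762, 3119 and 3648 CPM in WT. The groups did not overlap, and HT lay between KO and WT. The log2 fold change was -6.49 (SE 0.18, adjusted p = 4.6e-17). In bulk RNA, fewer cells of a type and less RNA per cell cannot be told apart.

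Besides Tex15, 21 genes passed the test, and all 21 were higher in KO. With Tex15, 22 of 14367 tested genes (0.153%) were called, and the 21 higher ones were 0.146% of those tested. Each of the 21 had all 3 KO libraries above all 3 HT and all 3 WT libraries. That separation alone was common: 5.92% of tested genes had each KO library above each HT library and 5.9% had each one below. The median log2 fold change of all genes was -0.005, and 1036 genes (7.21%) had an unadjusted p under 0.05. Most of the 21 were low or nearly silent in HT. Their median HT level was 6.09 CPM, against 14.8 CPM over all tested genes, 14 of them lay under 10 CPM, and 7 lay under 1 CPM. Gpr179, Cdh19, C6, Cyp4a12b, Asb12, Slc15a2 and Cyp7b1 passed the filter on low counts (1.56 CPM in 3 libraries) through KO alone, so that being tested already required a difference from most other libraries. Of the 142 tested genes that came in this way, 85 had each KO library above each HT library.

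**Figure D1:**
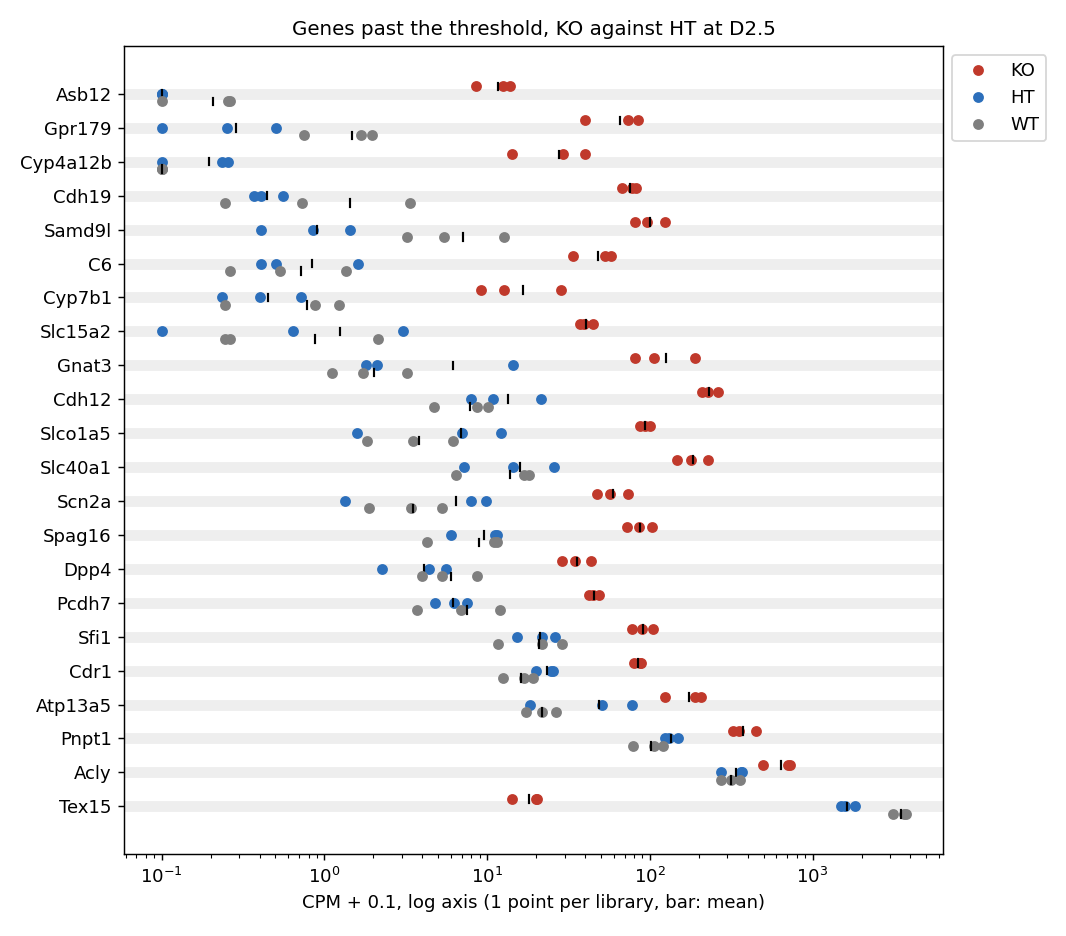
Level of the 22 called genes in each D2.5 library, as CPM + 0.1 on a log axis, with KO above HT above WT in each row, 1 point per library and a bar at the mean of the group. The 3 KO points of each of the 21 higher genes lie to the right of all HT and WT points, and Tex15 at the bottom shows the opposite order.

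Promoters of some of these genes are shown because the silencing pathway of TEX15 acts through DNA methylation, which is laid down at CpG sites. Sequences are the 250 bases before the annotated start in RefSeq (GRCm38.p6), read 5′ to 3′ on the gene's strand, with each CpG in capitals. Samd9l, Asb12, Gpr179 and C6 are shown as genes that were nearly silent in HT, and Pnpt1 and Spag16 as genes with more CpG sites and a higher HT level. They were picked for these traits, so the contrast between them is no result.
Samd9l (- strand, chr6:3399572-3399821): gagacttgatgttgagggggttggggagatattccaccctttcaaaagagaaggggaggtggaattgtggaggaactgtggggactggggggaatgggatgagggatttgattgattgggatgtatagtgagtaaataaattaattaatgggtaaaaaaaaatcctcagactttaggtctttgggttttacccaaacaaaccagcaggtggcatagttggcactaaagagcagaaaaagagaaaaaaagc
Asb12 (- strand, chrX:95478130-95478379): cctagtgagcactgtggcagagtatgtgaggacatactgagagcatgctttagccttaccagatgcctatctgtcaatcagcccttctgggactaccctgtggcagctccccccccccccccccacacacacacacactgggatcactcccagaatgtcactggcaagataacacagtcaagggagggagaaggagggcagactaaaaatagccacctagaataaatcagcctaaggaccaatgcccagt
Gpr179 (- strand, chr11:97352357-97352606): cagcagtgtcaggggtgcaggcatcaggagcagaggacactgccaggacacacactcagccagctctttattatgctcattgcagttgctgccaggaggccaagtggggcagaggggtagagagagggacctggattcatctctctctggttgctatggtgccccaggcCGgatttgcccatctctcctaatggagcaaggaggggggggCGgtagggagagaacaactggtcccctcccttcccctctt
C6 (+ strand, chr15:4726960-4727209): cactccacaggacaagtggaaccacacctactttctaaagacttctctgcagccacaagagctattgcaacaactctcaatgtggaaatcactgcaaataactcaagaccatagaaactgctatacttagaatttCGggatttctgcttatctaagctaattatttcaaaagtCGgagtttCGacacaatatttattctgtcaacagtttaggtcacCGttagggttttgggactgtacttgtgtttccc
Pnpt1 (+ strand, chr11:29130494-29130743): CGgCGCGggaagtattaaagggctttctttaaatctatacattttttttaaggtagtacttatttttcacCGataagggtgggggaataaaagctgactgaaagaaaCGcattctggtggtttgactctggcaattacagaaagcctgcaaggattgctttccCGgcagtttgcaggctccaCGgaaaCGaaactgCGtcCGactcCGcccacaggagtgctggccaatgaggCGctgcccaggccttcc
Spag16 (+ strand, chr1:69826720-69826969): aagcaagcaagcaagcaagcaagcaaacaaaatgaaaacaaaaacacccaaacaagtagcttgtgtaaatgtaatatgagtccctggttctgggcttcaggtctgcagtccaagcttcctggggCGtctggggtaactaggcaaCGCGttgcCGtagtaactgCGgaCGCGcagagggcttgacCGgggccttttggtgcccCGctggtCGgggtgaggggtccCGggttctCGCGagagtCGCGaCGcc

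RefSeq entries were found for 16 of the 21 genes. Samd9l and Asb12 held 0 CpG sites in this window, Gpr179 held 2, C6 held 4, Pnpt1 held 12 and Spag16 held 16. CpG sites did not follow the HT level throughout. Atp13a5 held 1 at a mean of 48.8 CPM in HT and Cdr1 held 3 at 23.2 CPM. Acly held 14 at 336 CPM, and Spag16 averaged 9.45 CPM in HT. The median over the 16 genes was 4 CpG sites, against 16 over the 11035 tested genes with an entry. Over all 27025 genes with an entry, tested or not, it was 6. The entries of 10 genes held 6 or fewer, as did 18.1% of the tested genes. Restricted to genes under 10 CPM in HT, the medians were 4 for the 11 called genes and 12 for 4484 tested genes. Of these called genes, Gpr179, C6, Asb12 and Slc15a2 passed the filter on low counts through KO alone. The limit of 10 CPM therefore does not make the called and tested genes alike in HT level. These are descriptions of letters in 1 window, and methylation was not measured in the files used here. Cyp4a12b, Cdh19, Slc40a1, Sfi1 and Cyp7b1 had no entry.

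Among genes of immune defence, Samd9l and C6 rose. Samd9l is an interferon-inducible gene with antiviral and growth-restraining roles. It stood at 125, 96.1 and 80.7 CPM in KO, against 0.308, 1.34 and 0.757 CPM in HT and 3.12, 5.35 and 12.5 CPM in WT. Its lowest KO library was over every WT library, and WT was over HT in each library without that difference passing (log2 fold change HT over WT -3.07, SE 0.56, adjusted p = 0.123). The log2 fold change KO over HT was 6.91 (SE 0.60, adjusted p = 4.28e-07), and 7.50 without HT replicate 2. C6, a component of the complement complex that perforates membranes, stood at 33.6, 57.5 and 53.2 CPM in KO, against 0.308, 0.403 and 1.51 CPM in HT. Its log2 fold change was 5.99 (SE 0.73, adjusted p = 6.96e-05), and 6.996 without HT replicate 3.

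Samd9l was the 1 called member of a list of 30 interferon and nucleic acid sensing genes, of which 21 were tested. Over all tested genes 0.146% were called higher. The median log2 fold change of the tested members was -0.37, on the other side of 0 from Samd9l. Eif2ak2, the kinase that senses double-stranded RNA, averaged 45.6 ± 14.2 CPM in KO and 72.8 ± 21.6 CPM in HT (SD, n = 3 each). Its log2 fold change of -0.67 (SE 0.32, adjusted p = 0.677) did not pass. Of the sensors and effectors usually read with Samd9l, Ifih1 had a log2 fold change of 1.69 (adjusted p = 0.676) and Ifi44 of 1.58 (adjusted p = 0.706). Both were chosen after their values were seen.

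The next 4 genes are known from sensory cells or neurons and were put together after they were called. Gpr179, an orphan receptor of retinal bipolar cells, stood at 39.6, 84.4 and 73.8 CPM in KO, against 0, 0.403 and 0.151 CPM in HT. KO replicate 1 was the lowest of the 3, and no HT library held more than 3 counts of it. The log2 fold change was 8.28 (SE 0.74, adjusted p = 4.28e-07), and 9.43 without HT replicate 2. Gnat3, the G protein subunit gustducin of taste cells, stood at 80.6, 106 and 189 CPM in KO, against 1.69, 2.01 and 14.4 CPM in HT. HT replicate 3 was the highest HT library and KO replicate 3 the highest KO library. The fold change on the log2 scale was 4.37 (SE 0.62, adjusted p = 0.000568), and 6.05 without HT replicate 3. Scn2a, a sodium channel of neurons, stood at 47.2, 57.2 and 73.3 CPM in KO, against 1.23, 9.81 and 7.88 CPM in HT. The log2 fold change of 3.22 (SE 0.59, adjusted p = 0.0121) no longer passed without KO replicate 2 (adjusted p = 0.0537) or KO replicate 3 (adjusted p = 0.0672). Of 10 tested Scn genes, Scn2a was the 1 called (median -0.46), against 0.146% of all tested genes called higher. Cdr1, an antigen of cerebellar degeneration, stood at 87.7, 79.6 and 87.4 CPM in KO, against 24.5, 19.7 and 25.3 CPM in HT. This is a log2 fold change of 1.87 (SE 0.34, adjusted p = 0.0116), and the call was lost without KO replicate 1 or HT replicate 2 (adjusted p up to 0.116). All exonic bases of Cdr1 lie under the opposite-strand gene C230004F18Rik, which held 2 counts in KO and 0 in HT. Whether the counting used strand is not given in the sources used here, so the transcripts of that locus cannot be told apart.

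Chemosensory receptor genes were counted as a further group. Of 1125 olfactory receptor genes, 834 were at 0 in all KO and HT libraries and 32 were tested. None of the 32 passed in edgeR and none in limma-voom, DESeq2 called 2, 8 had an unadjusted p under 0.05, and the median log2 fold change was -0.14. Of 337 vomeronasal receptor genes, 16 were tested, none passed in edgeR or limma-voom, DESeq2 called 1, 3 had an unadjusted p under 0.05, and the median was -0.12. Over all tested genes 7.21% had an unadjusted p under 0.05 in edgeR. The number that DESeq2 called over all genes is given in the last section. Olfr856-ps1, a receptor pseudogene and the tested olfactory gene with the highest level, averaged 23.3 ± 6.35 CPM in KO and 22.1 ± 7.34 CPM in HT.

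Cell adhesion genes rose in 3 cases. Cdh19, a cadherin of Schwann cell precursors, stood at 67.0, 77.2 and 82.0 CPM in KO, against 0.308, 0.269 and 0.454 CPM in HT. In edgeR the log2 fold change was 7.71 (SE 0.76, adjusted p = 2.22e-06), and the KO libraries lay close together. Cdh12, a cadherin known from the brain, had the highest KO level among genes called more than 4 log2 units higher, at 261, 228 and 208 CPM in KO, against 7.85, 21.2 and 10.8 CPM in HT. Its log2 fold change was 4.12 (SE 0.36, adjusted p = 4.28e-07). Pcdh7, a protocadherin, stood at 44.4, 42.0 and 48.8 CPM in KO, against 7.39, 6.18 and 4.70 CPM in HT (log2 fold change 2.88, SE 0.51, adjusted p = 0.0103). That call was lost without HT replicate 2 or HT replicate 3 (adjusted p up to 0.0821). The opposite-strand gene 4932441J04Rik covers 21.1% of its exonic bases and held 7, 39 and 107 counts in KO and 0 in every HT library, too few to be tested. In their families, 2 of 19 tested Cdh genes (median log2 fold change 0.09) and 1 of 27 tested Pcdh genes (median -0.09) were called. Over all tested genes 0.146% were called higher. Only families that hold a called gene were counted, here and for Scn, Slc, Slco, Atp13a and Cyp, so at least 1 call in each was fixed. Cdh1 averaged 41.1 ± 18.4 CPM in KO and 40.1 ± 4.29 CPM in HT (adjusted p = 0.99).

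Among transporters 4 genes were called: 2 of 272 tested Slc genes (median log2 fold change -0.03), 1 of 5 Slco genes (median -0.50) and 1 of 5 Atp13a genes (median 0.50). The share called higher over all tested genes was 0.146%. Slc40a1, the iron exporter ferroportin, stood at 147, 179.5 and 228 CPM in KO, against 25.7, 14.4 and 7.12 CPM in HT. The fold change on the log2 scale was 3.55 (SE 0.42, adjusted p = 5.67e-05). Slco1a5, an uptake carrier of organic anions, stood at 101, 87.3 and 93.1 CPM in KO, against 6.93, 1.48 and 12.1 CPM in HT. The KO libraries of Slco1a5 were close together while the HT libraries spread widely (log2 fold change 3.78, SE 0.56, adjusted p = 0.000923, and 4.48 without HT replicate 3). Its relatives Slco1a4 and Slco1a6, which share sequence with it, held 4 and 0 counts over the KO libraries and 0 in HT. Slc15a2, a proton-coupled peptide transporter, stood at 44.4, 39.6 and 37.1 CPM in KO, against 2.93, 0.537 and 0 CPM in HT. Its log2 fold change of 5.12 (SE 0.94, adjusted p = 0.013) no longer passed without KO replicate 1, KO replicate 2 or HT replicate 2 (adjusted p = 0.0532 to 0.118), and it was 7.08 without HT replicate 1. Slc15a1 averaged 13.0 ± 5.49 CPM in KO and 14.8 ± 4.15 CPM in HT (adjusted p = 0.972). Atp13a5, a transport ATPase, stood at 123, 190.4 and 207 CPM in KO, against 18.3, 50.8 and 77.4 CPM in HT. This is a log2 fold change of 1.83 (SE 0.37, adjusted p = 0.039), and the call was lost without KO replicate 2, KO replicate 3, HT replicate 1 or HT replicate 2 (adjusted p up to 0.154).

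Enzymes of lipid and sterol metabolism rose in 3 cases. Cyp4a12b, which hydroxylates fatty acids, stood at 39.9, 29.1 and 14.2 CPM in KO, against 0.154, 0.134 and 0 CPM in HT. HT held 2 counts in all and KO held 527, a CPM ratio of 287 (exact 95% counting interval 79.2 to 2380, which covers counting error only). The edgeR adjusted p was 0.000228, and limma-voom gave 0.0738. Its copy Cyp4a12a shares 62.9% of its 31-base words and was at 0 in every library, so how reads fell between the pair is uncertain. Cyp7b1, a hydroxylase of oxysterols, stood at 12.5, 9.13 and 28.2 CPM in KO, against 0.616, 0.134 and 0.303 CPM in HT. KO replicate 3 was the highest, and the log2 fold change of 5.51 (SE 1.04, adjusted p = 0.0174) did not pass without KO replicate 3, HT replicate 2 or HT replicate 3 (adjusted p = 0.097 to 0.192) or by limma-voom (0.26). It was 4.90 without KO replicate 3 and 6.15 without HT replicate 1. Cyp7a1, the bile acid enzyme most like it in name, averaged 7.24 ± 5.61 CPM in KO and 5.16 ± 3.27 CPM in HT (adjusted p = 0.957). Acly, which makes cytosolic acetyl-CoA from citrate, stood at 726, 706 and 499 CPM in KO, against 371, 275 and 364 CPM in HT. It had the highest level and the smallest change of the 21 (log2 fold change 0.94, SE 0.18, adjusted p = 0.0273), and the call was lost in 5 of the 6 fits that left out 1 library, the exception being KO replicate 3 (adjusted p up to 0.229). Of 33 tested Cyp genes 2 were called, against 0.146% of all tested genes called higher.

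The other 5 genes have varied roles. Pnpt1, the mitochondrial exoribonuclease polynucleotide phosphorylase, was well expressed in HT. It stood at 322, 353 and 447 CPM in KO, against 149.7, 124 and 131 CPM in HT. In edgeR the log2 fold change was 1.47 (SE 0.21, adjusted p = 0.000568). Spag16, a protein of the sperm axoneme, stood at 86.0, 72.5 and 103 CPM in KO, against 11.1, 5.91 and 11.4 CPM in HT. The change in log2 units was 3.21 (SE 0.44, adjusted p = 0.000375). Asb12, of a family of adaptors for ubiquitin ligases, stood at 12.4, 8.49 and 13.7 CPM in KO and at 0 in all 3 HT libraries. A count of 3 in an HT library is 0.403 to 0.462 CPM, so the KO mean was at least 24.95-fold higher (edgeR adjusted p = 0.0101). That call was lost without HT replicate 2 (adjusted p = 0.0634) and by limma-voom (0.0518). Dpp4, a dipeptidase of the cell surface, stood at 43.2, 28.7 and 34.5 CPM in KO, against 4.31, 2.15 and 5.45 CPM in HT. Its log2 fold change of 3.15 (SE 0.57, adjusted p = 0.0118) was lost without KO replicate 1, HT replicate 1 or HT replicate 2 (adjusted p = 0.0536 to 0.118). Sfi1, a centrin-binding protein of centrosomes, stood at 77.5, 105 and 89.5 CPM in KO, against 15.2, 21.6 and 25.9 CPM in HT (log2 fold change 2.11, SE 0.37, adjusted p = 0.0103). It was lost without KO replicate 2, HT replicate 1 or HT replicate 2 (adjusted p up to 0.079), and 9.6% of its 31-base words occur in other genes. Sfi1, Cdr1, Pcdh7, Atp13a5, Pnpt1 and Acly fell outside the rule for named genes and were added after their values were seen.

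Against WT, which shares the KO libraries with the comparison above, 20 of the 22 genes were called. Cyp7b1 (adjusted p = 0.0506) and Dpp4 (adjusted p = 0.0506) were not. That fit called 0.216% of tested genes. Between HT and WT, 1 gene was called (0.00696%), Tex15, with a log2 fold change HT over WT of -1.10 (SE 0.14, adjusted p = 0.00133). Of the 42 tested genes next to these 22 on the chromosome, none was called by edgeR (lowest adjusted p = 0.517), DESeq2 or limma-voom, and 4 had an unadjusted p under 0.05. Of those neighbours 7 had each KO library above each HT library and 5 each one below, against 5.92% and 5.9% of all genes, with a median log2 fold change of 0.13.

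Some genes lay just outside the threshold. Suv39h2, a methyltransferase of histone H3 lysine 9, stood at 285, 279 and 319.9 CPM in KO, against 147, 175 and 146 CPM in HT. The fold change on the log2 scale was 0.92 (SE 0.19, adjusted p = 0.0529). Cpeb1, a regulator of mRNA polyadenylation in germ cells, stood at 30.5, 28.0 and 38.5 CPM in KO, against 116, 61.2 and 87.1 CPM in HT (log2 fold change -1.44, SE 0.30, adjusted p = 0.0529). The groups did not overlap for either gene. Neither met the threshold in edgeR, while DESeq2 called both (adjusted p = 0.000442 for Suv39h2 and 0.000401 for Cpeb1) and limma-voom called Suv39h2 (0.035). Xist, the RNA that coats an inactive X chromosome, stood at 81.9, 70.9 and 69.2 CPM in KO, against 111, 196 and 173 CPM in HT (log2 fold change -1.11, SE 0.24, adjusted p = 0.0574). Kbtbd6 had an adjusted p of 0.0529 and Fam135a of 0.0563, both with each KO library above each HT library. DESeq2 called Xist, Kbtbd6 and Fam135a too, and limma-voom called Fam135a. These 5 were chosen after their values were seen.

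The silencing machinery itself was described from lists. None of 26 tested piRNA pathway genes passed in edgeR, DESeq2 or limma-voom (median log2 fold change -0.17, 2 with an unadjusted p under 0.05, lowest adjusted p = 0.346). Tdrd1, a Tudor protein of piRNA granules, averaged 705 ± 120.4 CPM in KO and 703 ± 87.1 CPM in HT (SD, n = 3 each). Each KO library lay below each HT library for Henmt1, Piwil1, Tdrd12, Piwil4 and Tdrd9, 5 of 26 against 5.9% of all genes. Piwil4, the nuclear PIWI protein of fetal germ cells, averaged 34.0 CPM in KO and 56.2 CPM in HT (log2 fold change -0.73, adjusted p = 0.734). None of 17 DNA methylation genes passed with any of the 3 tools (median 0.02, 0 with an unadjusted p under 0.05), with Hells, a chromatin remodeller, at 875 ± 243 CPM in KO and 821 ± 31.5 CPM in HT. Of 21 genes of H3K9 methylation and KRAB repression none passed in edgeR (median 0.12, 1 with an unadjusted p under 0.05), while DESeq2 and limma-voom each called Suv39h2. Atrx, a chromatin remodeller, averaged 1597 ± 349.9 CPM in KO and 1319.8 ± 31.9 CPM in HT. The genes named without their own call here and in the next paragraphs are the highest members of their lists, or were picked after their values were seen.

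The state of the germ cells was read from further lists, and edgeR called none of their genes. Of 23 tested germline genes known to respond to DNA methylation, the median log2 fold change was -0.07, and 1 had an unadjusted p under 0.05, and Sycp1 of the synaptonemal complex averaged 1136 ± 386 CPM in KO and 1136 ± 185 CPM in HT. The median was -0.23 over 22 fetal and pluripotency genes, 0.04 over 20 genes of prospermatogonia and stem cells, -0.32 over 13 genes of spermatogonial differentiation and -0.13 over 27 genes of meiotic prophase. In the same order, 2, 3, 0 and 3 genes had an unadjusted p under 0.05, and DESeq2 called 1 gene of the second list, Tspan8. Foxo1, a factor of spermatogonial stem cells, averaged 518 ± 65.8 CPM in KO and 467 ± 113 CPM in HT, and the cohesin subunit Smc1b averaged 1994 ± 539 CPM in KO and 1939.7 ± 108 CPM in HT. The proliferation marker Mki67 averaged 4334 ± 778 CPM in KO and 3834 ± 745 CPM in HT, within a cell cycle list of 29 genes with a median of 0.10 and 2 at an unadjusted p under 0.05. Among 22 imprinted genes the median was 0.25 and 4 had an unadjusted p under 0.05, with Igf2 at 358 ± 86.3 CPM in KO and 423 ± 35.1 CPM in HT. Of 20 MERVL-linked genes of the cleavage embryo 1 was tested, and 11 were at 0 in all KO and HT libraries. DESeq2 and limma-voom called no gene of these other lists.

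Immediate early and stress genes, which respond quickly to handling and damage, were mostly higher in KO without passing the test. Of 23 tested, 8 had each KO library above each HT library, against 5.92% of all genes, and the median log2 fold change was 0.62. None was called by edgeR, DESeq2 or limma-voom (5 with an unadjusted p under 0.05, lowest adjusted p = 0.346). Egr1, an early growth response factor, averaged 540 ± 54.6 CPM in KO and 409 ± 61.1 CPM in HT. The summed level of the list was 2097 to 2518 CPM in KO and 1516 to 2038 CPM in HT, without overlap. Its part in the 21 calls was not tested. Of 17 p53 target genes none was called by edgeR (median 0.29, 4 with an unadjusted p under 0.05) and 1, Trp53inp1, by DESeq2, with Mdm2 at 544 ± 209 CPM in KO and 462 ± 44.4 CPM in HT.

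Markers of testis somatic cells were read to see which other cells the sort could hold. Peritubular and stromal genes had a median log2 fold change of 0.66 over 18 tested, 4 of them with each KO library above each HT library, against 5.92% of all genes, and summed to 715 to 1277 CPM in KO and 536 to 671 CPM in HT. Col1a2, a collagen chain, stood at 62.5, 171 and 72.8 CPM in KO, against 45.3, 34.1 and 23.3 CPM in HT (log2 fold change 1.57, adjusted p = 0.183). KO replicate 2 held the most of it, and DESeq2 called it. Sertoli genes had a median of 0.41 over 15 tested and summed to 312 to 558 CPM in KO and 252 to 382 CPM in HT, and DESeq2 called Wt1 of that list. The Sertoli hormone gene Amh was at 0 to 1.80 CPM in KO and 0 to 1.34 CPM in HT. Hsd3b1, a steroid enzyme of Leydig cells, stood at 0, 19.9 and 10.3 CPM in KO, against 0, 0 and 0.303 CPM in HT (adjusted p = 0.247). The median was -0.46 over 11 Leydig genes, -0.14 over 9 endothelial genes, -0.04 over 5 macrophage and blood genes and -0.36 over 2 erythroid genes. The summed levels of KO and HT overlapped for each of these lists but the stromal one. edgeR called no somatic marker, with 2 Sertoli, 2 Leydig, 5 stromal, 1 endothelial and 0 other genes at an unadjusted p under 0.05. The part of somatic cells in the 21 calls was not tested.

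**Figure D2:**
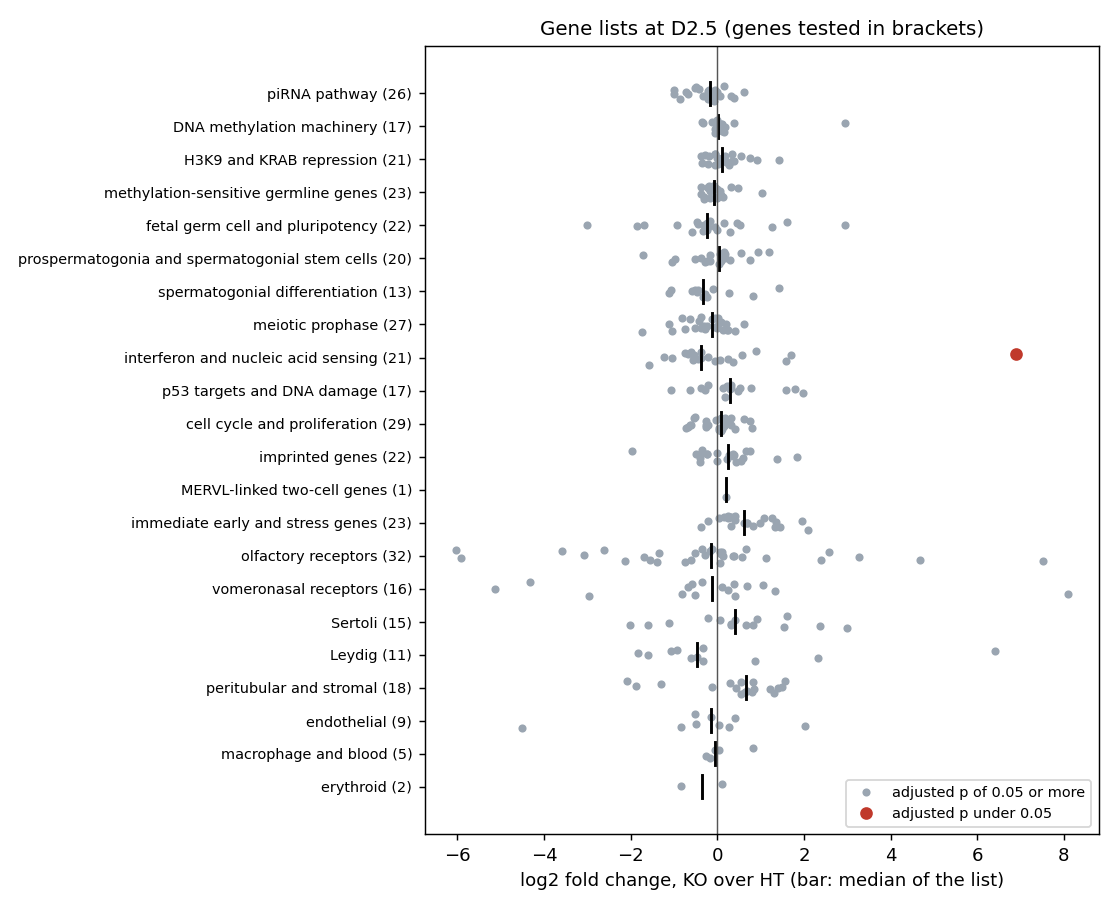
Log2 fold change, KO over HT, of every tested member of the 22 gene lists, 1 point per gene with a bar at the median of each list. Samd9l in the interferon list is the 1 called gene and lies far to the right of its list, while the medians of the stress and stromal lists are at 0.62 and 0.66.

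Repeats were measured in 2 ways: as reads per repeat name, and as alignments per repeat family, where a read can count many times. By family, 4 of 52 (7.69%) were called, all higher in KO, and these were also the 4 families (7.69%) with each KO library above each HT library. In another 4 (7.69%) each KO library lay below. The ERVK family, which includes the IAP elements, had 19932249, 22998792 and 21947077 counts in KO, against 4593118, 6804066 and 5454820 in HT. Its log2 fold change on the gene scale was 2.08 (SE 0.225, adjusted p = 1.8e-16). The L1 family had 1211685004, 873276749 and 887437830 counts in KO, against 301545361, 397206195 and 362672547 in HT. KO replicate 1 was the highest, and the log2 fold change in alignments was 1.61 (SE 0.25, adjusted p = 3.69e-09). The ERV1 family had 706388, 613060 and 639172 counts in KO, against 211662, 309623 and 263937 in HT (log2 fold change 1.45, SE 0.20, adjusted p = 1.17e-10). The family named RNA changed least, at 465, 529 and 696 CPM in KO, against 281, 352 and 367 CPM in HT (log2 fold change 0.76, SE 0.21, adjusted p = 0.00435), and was lost without KO replicate 3 or HT replicate 1 (adjusted p up to 0.0733).

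Other large families overlapped between KO and HT. Their log2 fold changes were -0.02 for ERVL (SE 0.21, adjusted p = 0.93), -0.23 for MaLR, -0.19 for Alu, -0.16 for B2, -0.22 for B4 and 0.26 for Satellite (adjusted p from 0.606 to 0.641 for these 5). The median over all 52 families was -0.18. L1 made up 94.9% to 96.6% of all family counts in KO and 89.9% to 92.1% in HT, so the scale matters. With each library scaled to its own family counts instead of its gene counts, ERVK stayed higher (log2 fold change 0.58, adjusted p = 0.00263), L1 still passed at 0.071 (adjusted p = 0.0226), and ERV1 (-0.071) and RNA (-0.74) turned. The spread of families and names was shared across rows in the fit, so their SE and p do not measure each row's own replicate spread.

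**Figure D3:**
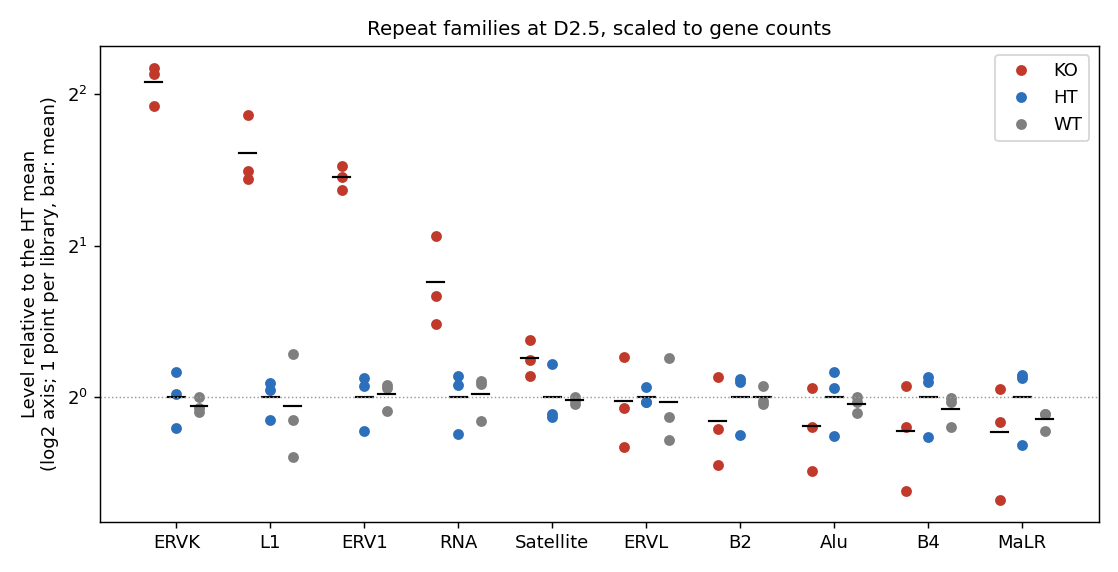
Level of 10 repeat families in each D2.5 library relative to the HT mean, scaled to gene counts, on a log2 axis with KO left of HT left of WT, 1 point per library and a bar at the mean. KO points of ERVK, L1, ERV1 and RNA lie above all HT points, and those of the other 6 families overlap with HT.

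By name, 14 of 1110 repeats (1.26%) were called, and 13 (1.17%) were higher in KO. All 13 had each KO library above each HT library, as had 2.97% of all names, while 5.23% had each one below. Over all names the median log2 fold change was -0.18. L1Md_A, a young mouse L1 subfamily, had 10953, 8076 and 8625 CPM in KO, against 2388, 3163 and 3615 CPM in HT. This is a log2 fold change of 1.59 (SE 0.22, adjusted p = 2.1e-10). L1Md_Gf, another young subfamily, had 619, 470.2 and 541 CPM in KO, against 186, 246 and 303 CPM in HT (log2 fold change 1.15, SE 0.23, adjusted p = 0.000122). L1Md_T, the young subfamily with the most counts, had 37826, 19149 and 29594 CPM in KO, against 34157, 21854 and 29174 CPM in HT. Its groups overlapped and its log2 fold change was 0.02 (SE 0.22, adjusted p = 0.977). L1Md_F2 had a log2 fold change of 0.26 (SE 0.22, adjusted p = 0.79). L1Md_F had each KO library above each HT library, at 4205, 4616 and 5337 CPM in KO, against 2625, 3541 and 3892 CPM in HT (log2 fold change 0.49, SE 0.22, adjusted p = 0.518). In all, 2 of 6 young L1 names were called. Scaled to the repeat tables' own library sizes, 5 of the 6 passed, L1Md_F (0.66, adjusted p = 5.9e-05), L1Md_F2 (0.43, adjusted p = 0.00104) and L1Md_F3 (0.41, adjusted p = 0.00323) among them. Of 28 other rodent L1 names (median 0.03) and 76 ancient L1 names (median -0.26) edgeR, DESeq2 and limma-voom called none, with 0 and 6 at an unadjusted p under 0.05. Summed over names, KO and HT overlapped in each L1 group, unlike the alignments of the L1 family. Young L1 summed to 56792 to 76890 CPM in KO and 52301 to 62258 CPM in HT. Other rodent L1 summed to 186634 to 291937 and 189095 to 270652 CPM, and ancient L1 to 109370 to 166065 and 136217 to 176906 CPM.

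IAP elements rose in their LTRs and in their internal part. IAPLTR1_Mm, an IAP LTR, had 274, 295 and 269.9 CPM in KO, against 41.0, 70.2 and 52.6 CPM in HT. It changed more than any other well-counted name (log2 fold change 2.35, SE 0.28, adjusted p = 3.05e-14), and the KO libraries were close together. IAPEz-int, the internal part of the most active IAP type, had 1575, 1676 and 1577 CPM in KO, against 439, 570.5 and 526 CPM in HT (log2 fold change 1.65, SE 0.22, adjusted p = 4.15e-11). The LTRs IAPLTR2a and IAPLTR2b rose by 1.48 (SE 0.25, adjusted p = 1e-06) and 1.34 (SE 0.27, adjusted p = 0.000122) on the log2 scale. IAP-d-int did not pass, at 1247, 1200.5 and 1577 CPM in KO, against 885, 1329 and 1389 CPM in HT (log2 fold change 0.16, adjusted p = 0.808). The LTR IAPLTR2_Mm had each KO library above each HT library without passing in edgeR (log2 fold change 0.69, SE 0.23, adjusted p = 0.178), though DESeq2 called it. In all, 3 of 10 IAP LTR names and 1 of 6 internal names were called, with medians of 0.43 and 0.29. Over all names 1.17% were called higher.

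Other retroviral names were called 1 by 1. RLTR1B-int had 1272, 811 and 992 CPM in KO, against 318, 516 and 553 CPM in HT (log2 fold change 1.15, SE 0.22, adjusted p = 4.07e-05). It was the single call among 13 MLV and VL30 types, against 1.17% of all names called higher. MMERGLN-int, an ERV1 element, had 1639, 1345 and 1627 CPM in KO, against 725, 796 and 687 CPM in HT (log2 fold change 1.06, SE 0.22, adjusted p = 0.000122). The groups did not overlap in either. MER67D had 149, 84.1 and 232 CPM in KO, against 25.4, 47.0 and 61.3 CPM in HT, with KO replicate 3 highest (log2 fold change 1.80, SE 0.30, adjusted p = 7.85e-07). RLTR10A (log2 fold change 0.82, SE 0.23, adjusted p = 0.0322) was lost without KO replicate 1, KO replicate 2, HT replicate 1 or HT replicate 2 (adjusted p = 0.058 to 0.315) and in a fit of the 6 KO and HT libraries alone (0.0873), and the DNA transposon Ricksha_c (1.01, SE 0.27, adjusted p = 0.0211) without KO replicate 3, HT replicate 1 or HT replicate 3 (adjusted p = 0.114 to 0.247). Against WT, Ricksha_c did not pass in edgeR (log2 fold change KO over WT 0.59, SE 0.27, adjusted p = 0.604). Of the other called names, MLT1K-int alone did not pass against WT. MMERVK10C-int, at 2385, 1854 and 2129 CPM in KO and 1463, 1535 and 1318 CPM in HT, did not pass (log2 fold change 0.56, SE 0.21, adjusted p = 0.302), though DESeq2 called it. None of 4 ETn and MusD names (median 0.00), 3 MERVL names (-0.16) or 27 rodent SINE names (-0.22) was called by edgeR, DESeq2 or limma-voom, and 0 had an unadjusted p under 0.05. ETnERV2-int averaged 2123 ± 464 CPM in KO and 2156 ± 374 CPM in HT.

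The last 3 called names rest on few counts or few settings. tRNA-Tyr-TAT held 48 counts over the KO libraries and 0 in HT and WT, at least 5.51-fold higher than 3 counts in an HT library (adjusted p = 0.0147). The call was lost without HT replicate 1 (0.0807) or HT replicate 2 (0.0721). MLT1K-int, a MaLR name and the 1 lower call, had 0.928, 0 and 0 CPM in KO, against 0.77, 4.03 and 9.24 CPM in HT, so its groups overlapped (log2 fold change -3.81, SE 1.06, adjusted p = 0.031). It was lost without KO replicate 2 (0.37) or KO replicate 3 (0.151), with the replicate block (0.322) and with the repeat tables' own library sizes (0.219). DESeq2 did not call MLT1K-int, and in edgeR it did not pass against WT (log2 fold change KO over WT -1.86, SE 1.10, adjusted p = 0.949). Without KO replicate 1, which leaves KO libraries at 0 alone, the fitted value was -7.94, and such a value is no bound. GSAT_MM, the major satellite, had 160.3, 254 and 209.8 CPM in KO, against 119.7, 139 and 71.5 CPM in HT (log2 fold change 0.92, SE 0.26, adjusted p = 0.0397). It passed under 6 of 15 alternatives and was lost without KO replicate 2, HT replicate 1 or HT replicate 3 (adjusted p up to 0.737).

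**Figure D4:**
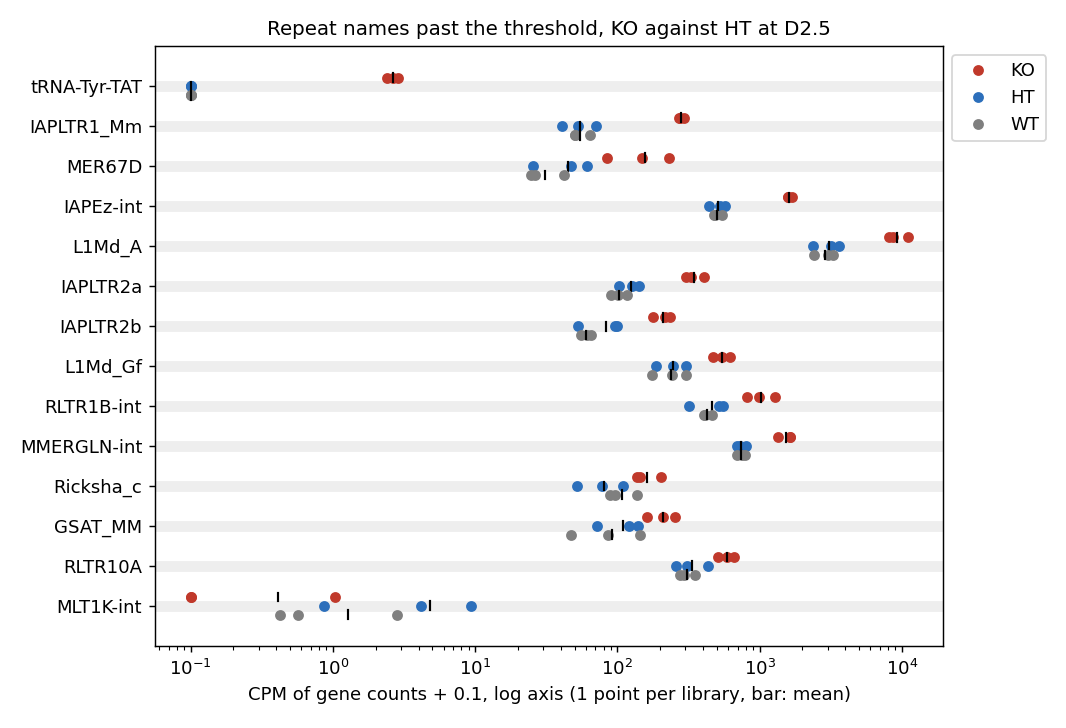
Level of the 14 called repeat names in each D2.5 library, as CPM of gene counts + 0.1 on a log axis, with KO above HT above WT in each row, 1 point per library and a bar at the mean. KO points of the 13 higher names lie to the right of all HT points, and MLT1K-int overlaps.

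At E18.5, a fetal age with the same genotypes, 14 of the 21 higher genes were also called higher. They are 66.7% of the D2.5 list and 3.71% of the 377 genes called higher at E18.5, which are 2.07% of the genes tested there. Scn2a, Spag16, Sfi1, Pcdh7, Cdr1, Acly and Atp13a5 were not called at E18.5. Since the 21 were chosen for passing at D2.5, larger fold changes there than at E18.5 are in part fixed by that choice. The difference of the KO effect between ages was tested over all genes. It called 0.0657% of them, and among the 21 it called Samd9l, Gpr179, Asb12, Cdh19, C6, Spag16 and Cdr1. Tex15 differed too, at -6.49 at D2.5 and -8.01 at E18.5.

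For several of these genes the HT level at D2.5 was below that at E18.5. Samd9l rose by 6.91 on the log2 scale at D2.5 and by 1.12 at E18.5 (SE 0.24), where it stood at 14.4, 24.3 and 25.9 CPM in KO and 11.2, 9.82 and 8.83 CPM in HT. Its KO level was thus higher and its HT level lower at D2.5. Gpr179 stood at 162, 136 and 125 CPM in KO and 19.5, 24.8 and 25.3 CPM in HT at E18.5 (log2 fold change 2.60, SE 0.17). Both of its groups were therefore lower at D2.5, with the larger gap in HT. Asb12, at 11.3, 6.14 and 8.28 CPM in KO and 2.51, 4.09 and 2.08 CPM in HT at E18.5, was thus measurable in HT at that age, whereas HT was at 0 at D2.5 and the fitted difference of 8.32 is no bound. Cdh19 (log2 fold change 3.25 at E18.5, SE 0.45) had KO levels of 5.98 to 12.1 CPM at E18.5, and C6 (1.86, SE 0.25) of 12.1 to 13.2 CPM. Cdr1 stood at 17.2 to 19.9 CPM in KO and 20.7 to 21.6 CPM in HT at E18.5, with no call there (adjusted p = 0.881). CPM of the 2 ages come from separate tables scaled separately.

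Most called repeat names were also called at E18.5. Of 12 that were tested at E18.5, 10 were called higher there too, where 9.87% of names were called higher. L1Md_A had log2 fold changes of 1.59 at D2.5 and 1.65 at E18.5 (SE 0.19), IAPEz-int of 1.65 and 1.47 (SE 0.18), and IAPLTR1_Mm of 2.35 and 1.94 (SE 0.19). The test of the difference between ages called 2.11% of names, 2 of the 14 among them: GSAT_MM, which fell at E18.5 by 2.73 on the log2 scale, and MLT1K-int. Of the 24 names called, 23 had the lower value at D2.5. MMERVK10C-int had log2 fold changes of 0.56 at D2.5 and 1.59 at E18.5, RLTR10-int of 0.14 and 1.61, and MuRRS4-int of -0.32 and 0.99, each with a called difference. ETnERV2-int had -0.02 at D2.5 and 0.90 at E18.5, and that difference did not pass (adjusted p = 0.0938). Of 52 families 1 differed between ages, the one named NA, with -0.06 at D2.5 and 1.18 at E18.5.

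**Figure D5:**
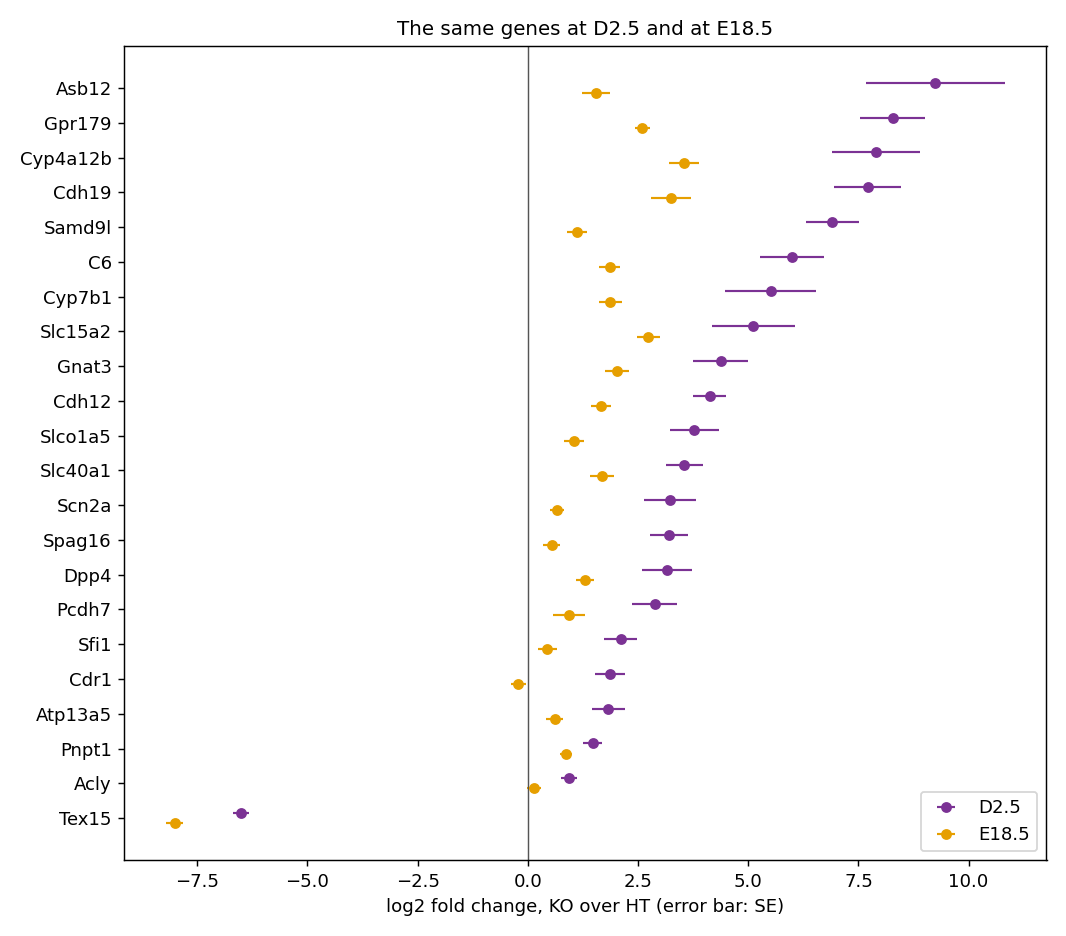
Log2 fold change, KO over HT, of the 22 genes called at D2.5, with D2.5 above E18.5 in each row and error bars of 1 SE. The D2.5 value lies to the right of the E18.5 value for each of the 21 higher genes, which were chosen for passing at D2.5, and Cdr1 is just below 0 at E18.5.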

How the data were processed

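RNA from sorted male germ cells was amplified and sequenced. Per the submitters' processing notes, STAR, Bowtie, featureCounts, edgeR and the mouse build mm9 were used, with no versions or roles named. The deposited values are whole-number counts per gene and per repeat name in one table and counts of alignments per repeat family in another, and no strand setting is given in the sources used here.

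Genes were tested with edgeR 4.0.16 (quasi-likelihood, TMM factors of genes alone, R 4.3.3) in a fit of the 9 libraries of D2.5, for KO minus HT, with the edgeR filter at 10 counts (15 in total). Repeat names and families with 10 counts in 3 libraries used the gene library sizes. Benjamini-Hochberg adjustment ran over all rows of a kind. RLE and upper quartile factors, other filters, DESeq2 1.42.0, limma 3.58.1 (voom), fewer libraries, a replicate block and the repeat tables' own sizes were tried. Where a library is left out, a group of 2 shares the spread of the others. E18.5 was fitted from its own 6 KO and HT libraries, and the difference between ages from the 12 libraries of both ages. The scripts were tested on simulated data.

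Named were Tex15, the 15 genes of largest change per direction that passed without overlap at an average log2 CPM of 1 or more, and members of 22 gene lists. The lists and the comparison were chosen with earlier results of these data known. One repeat group's pattern was corrected after the counts were seen. Nothing says that libraries share an animal or litter, and counting intervals and floors cover counting error only. Gene models and overlaps came from GENCODE on GRCm38 and promoters from RefSeq on GRCm38.p6, joined by symbol, and no coordinates of mm9 were used.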

Additional observations from a re-analysis of the deposited data

Results flagged for a closer look

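The test of the difference between ages passed for 12 genes, 24 repeat names and 1 family in all, and 14 of these belong to the genes and repeats named here. For these 14, the difference of the KO effect (log2 fold change KO over HT) between D2.5 and E18.5 passed its own test in edgeR (12 libraries, adjusted over all rows of a kind). Values are D2.5 minus E18.5, so a positive one means a larger or less negative log2 fold change at D2.5. Samd9l differed by 5.83 (SE 0.55, adjusted p = 0.000293) and Gpr179 by 5.75 (SE 0.63, adjusted p = 0.00119). Asb12 differed by 8.32 (SE 1.34, adjusted p = 0.0428), a fitted value that depends on HT libraries at 0 at D2.5. Cdh19 differed by 4.51 (SE 0.75, adjusted p = 0.0397) and C6 by 4.18 (SE 0.68, adjusted p = 0.0392). Spag16 differed by 2.70 (SE 0.41, adjusted p = 0.025) and Cdr1 by 2.12 (SE 0.32, adjusted p = 0.025), and neither was called at E18.5. Tex15 differed by 1.54 (SE 0.24, adjusted p = 0.025), the loss being smaller on the log2 scale at D2.5.

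Among repeats, GSAT_MM differed by 3.67 (SE 0.31, adjusted p = 1.11e-26), with opposite signs at the 2 ages. Its levels were far apart: at E18.5 it had 2908, 3653 and 1795 CPM in KO and 17907, 18854 and 18494 CPM in HT. At D2.5 its means were 208 CPM in KO and 110 CPM in HT, and the D2.5 call was lost under 9 of 15 alternatives. RLTR10-int differed by -1.43 (SE 0.28, adjusted p = 0.000161), MuRRS4-int by -1.28 (SE 0.29, adjusted p = 0.00124) and MMERVK10C-int by -0.994 (SE 0.29, adjusted p = 0.0338). MLT1K-int differed by -4.05 (SE 1.21, adjusted p = 0.0448) on few counts. The family named NA differed by -1.21 (SE 0.25, adjusted p = 0.000373).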

How the results depend on the processing

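The 22 gene calls were all kept under RLE and upper quartile factors, without the filter, under the stricter filter, with DESeq2 and with the 6 KO and HT libraries alone, and 19 of them with limma-voom, which called 25 in all. The count was 109 without the filter (83 higher in KO), 126 with DESeq2 (82 higher) and 14 to 24 when 1 library was left out. The lowest, 14, came without HT replicate 2, with 13 of the 22 kept. Tex15, Gpr179, Cdh19, Samd9l, C6, Gnat3, Cdh12, Slco1a5, Slc40a1, Spag16 and Pnpt1 passed under all 14 alternatives. Same-numbered libraries did not deviate together (correlations 0.03, -0.02 and 0.02). With the number as a replicate block 24 genes, 12 names and 4 families were called, and 22 genes, 12 names and 4 families were shared with the fit without it. Leaving out 1 library gave 10 to 19 names and 3 to 4 families. Scaled to the repeat tables' own library sizes, 36 names and 49 families were called (2 families higher), ERV1 turned to -0.071, RNA to -0.74 and Satellite to -1.26, and the count of families that differed between ages was 0 in place of 1. B2 (-1.65), Alu (-1.68) and ERVL (-1.52), which overlapped on the gene scale, were lower in KO on that scale. L1 made up most of the family counts in each library. Those counts, by which that scale divides, were 919879000 to 1254020000 in KO and 335344000 to 431077000 in HT. Dividing by them lowers KO against HT for any family that is level on the gene scale. The lower values on that scale are therefore no sign of less RNA from these families. Beyond this division, the causes of these changes were not tested. Of 568 alternative values of 40 called genes, names and families, 510 stayed past the threshold in the same direction, 56 no longer passed and 2 (ERV1 and RNA, above) changed sign. Gene depth of 6063632 to 7391401 counts limits genes near the floor of 3 counts.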
